A study of Mus musculus with 6 samples.

Results

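Sarcomere and muscle differentiation genes were examined in undifferentiated C2C12 myoblasts, a mouse line of skeletal muscle precursor cells. The 39 genes were chosen by name and cover myosins, actins, troponins, sarcomere scaffold proteins, calcium-release proteins, acetylcholine receptor subunits, creatine kinases, myoglobin and the secreted growth inhibitor myostatin. Of the 39, 38 are among the 18193 genes with a probe set annotated to a single gene on the array. For Mstn (myostatin) no such probe set was listed. Each gene was represented by its brightest probe set, and was called detected where the mean signal over the 6 arrays exceeded 23.4, the median of the means of all 45037 non-control probe sets. By this rule 13 genes were detected and 25 were not, which is 34.2% detected against 59.2% of the 18193 genes.

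The C2C12 line used throughout carried a tetracycline-inducible integrin alpha7 construct, in the noninduced cells as well. Noninduced cells (3 arrays) were kept for 36 h in growth medium with 20% serum, chick embryo extract and no tetracycline, and induced cells (3 arrays) for 36 h in the same medium with 1 µg/ml tetracycline. The design text calls the 3 samples of a condition biological replicates. Whether the line is 1 clone, which species the construct comes from and what cells without the construct do under tetracycline are not given by the sources used here, and no sample of differentiated cells was analysed here. The comparison asks how raised integrin alpha7 alters transcription in myoblasts. Here it is read for the genes that make a myoblast into a contracting fibre.

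Myoblasts divide under serum and hold back the muscle programme. When serum is withdrawn, the factors MyoD and myogenin bind E-boxes near muscle genes, the cells leave the cell cycle, fuse into myotubes and build sarcomeres, in which myosin filaments pull on actin filaments under the control of troponin and calcium. Embryonic and cardiac isoforms are typically made first and are replaced by adult fast and slow isoforms in mature fibres.

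Facts of the whole series bear on every value below. Itga7, the gene that the construct should raise, gave 811, 778 and 786 on the noninduced arrays and 675, 727 and 676 on the others, so the second group is called the arrays labelled induced and every direction rests on the labels. Whether the probe set covers the construct is not stated. The instrument records gave hybridisation and scan dates and a fluidics module number for each array. A new fluidics run was inferred where the module number fell back. By this rule noninduced arrays 1 to 3 and induced replicate 1 were in run 1 and induced replicates 2 and 3 in run 2. Scan order followed group, so an effect of scan order cannot be told apart from one of the treatment. The median signal was 24.9 to 27.7 on noninduced arrays and 22.8 to 24.8 on those labelled induced, and with 3 arrays a group the precision is low. Of 9 myoblast markers with a probe set, 8 were detected, among them Myod1, Myf5 and Cdh15. Pax7, a marker of muscle precursors, was not (mean 9.25). Of these 8, Ncam1 lay higher on every array labelled induced, as did 9.65% of all probe sets tested. Myod1, Itga7 and Chrna1 lay lower on all of these arrays, as did 10.6% of all probe sets tested. None of the 8 passed limma's adjusted threshold. Myog (myogenin), which marks the onset of differentiation, stood at 54.3, 20.8 and 53.4 on noninduced arrays and at 48.9, 31.8 and 18.0 on the others. Of the other cell types checked, 1 of 6 endothelial, 1 of 7 cardiac, 2 of 6 bone and cartilage, 3 of 7 fat and 4 of 7 macrophage markers exceeded the detection level, with summed levels of the detected ones that overlapped between the groups except for bone and cartilage (76.2 to 119 on noninduced arrays and 55.8 to 71.5 on the others). The brightest were Cd14 (mean 168) and Csf1r (70.9) of the macrophage list, Pparg (128) and Cebpa (68.9) of the fat list and Sp7 (48.4) of the bone list, while Pecam1, Ptprc, Adipoq, Col2a1 and Myh6 had means of 3.74 to 6.58. The bone and cartilage sum is over Sp7 and Alpl, and taken alone each of them overlapped between the groups. The part of all these markers in the results was not tested.

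Promoter sequences were set beside the detection calls because Myod1, whose protein binds E-boxes, was itself detected, at 807, 857 and 749.9 on noninduced arrays and 699, 747 and 691 on those labelled induced. The groups did not overlap (log2 -0.17, limma adjusted p = 0.261). The RefSeq promoter table of assembly GRCm38.p6 held 34 of the 39 genes, and the 250 bases before each start were searched on both strands. For genes with several starts, as for 5 of these 34, a match before any start counted. The general E-box CANNTG was present for 27 of 34 genes, against 69.3% of all genes in the table. Its MyoD form CAGCTG, which is also a CANNTG match, was present for 15 of 34 genes, against 14.7% of all genes. It was found for 6 of 12 detected genes and for 9 of 21 genes that were not detected. A MEF2-type pair, CTA and TAG with any 4 bases between on either strand, was present for 3 of 34 genes (Ckb, Ldb3 and Ttn, all detected), against 3.70% of all genes. The MEF2-type pair was thus found for 3 of 12 detected genes and for 0 of 21 genes that were not detected. The Ldb3 match lay before only 1 of its starts. A link between these letters and detection was not tested. A match is a description of these letters and not a measured binding site.

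Promoters of detected and undetected genes, with and without CAGCTG (in capitals), are shown as examples, among them those of all 3 detected acetylcholine receptor subunits. Chrna1 lies on the minus strand at chr2:73580339-73580588, Chrng on the plus strand at chr1:87205561-87205810, Chrnb1 on the minus strand at chr11:69795938-69796187, Des on the plus strand at chr1:75360042-75360291, Ckm on the plus strand at chr7:19410844-19411093 and Myh3 on the plus strand at chr11:67078050-67078299, all in GRCm38.p6 and written 5′ to 3′ in the direction of the gene. Ckm and Myh3 were not detected and the other 4 genes were.
Chrna1: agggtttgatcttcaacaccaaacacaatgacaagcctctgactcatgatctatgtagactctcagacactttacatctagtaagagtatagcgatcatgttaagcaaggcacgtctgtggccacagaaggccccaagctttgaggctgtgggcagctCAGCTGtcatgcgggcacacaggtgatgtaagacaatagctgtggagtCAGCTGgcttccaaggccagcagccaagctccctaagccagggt
Chrng: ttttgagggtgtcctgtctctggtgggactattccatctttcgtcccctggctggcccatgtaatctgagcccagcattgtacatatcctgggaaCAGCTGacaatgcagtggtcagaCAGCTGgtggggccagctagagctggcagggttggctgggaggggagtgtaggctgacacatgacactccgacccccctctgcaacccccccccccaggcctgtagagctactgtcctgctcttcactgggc
Chrnb1: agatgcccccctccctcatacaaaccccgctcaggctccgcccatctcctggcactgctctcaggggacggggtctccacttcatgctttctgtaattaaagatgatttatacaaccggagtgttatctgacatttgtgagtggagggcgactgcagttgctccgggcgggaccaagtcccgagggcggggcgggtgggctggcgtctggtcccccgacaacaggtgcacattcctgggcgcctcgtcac
Des: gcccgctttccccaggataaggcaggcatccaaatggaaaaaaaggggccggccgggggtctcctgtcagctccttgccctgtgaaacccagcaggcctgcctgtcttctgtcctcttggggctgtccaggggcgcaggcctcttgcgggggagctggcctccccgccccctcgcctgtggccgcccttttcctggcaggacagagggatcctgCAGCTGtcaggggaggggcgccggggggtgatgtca
Ckm: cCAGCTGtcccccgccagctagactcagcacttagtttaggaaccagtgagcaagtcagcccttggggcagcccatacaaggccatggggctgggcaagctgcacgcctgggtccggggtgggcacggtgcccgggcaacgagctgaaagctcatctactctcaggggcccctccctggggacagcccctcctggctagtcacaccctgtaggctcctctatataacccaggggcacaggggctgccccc
Myh3: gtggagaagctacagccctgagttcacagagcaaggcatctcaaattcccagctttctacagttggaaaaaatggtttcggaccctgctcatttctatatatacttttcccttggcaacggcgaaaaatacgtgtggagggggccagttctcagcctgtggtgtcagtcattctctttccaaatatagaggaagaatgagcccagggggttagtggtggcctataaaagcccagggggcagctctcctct
The CAGCTG of Chrna1 begin 92 and 44 bases before the start, those of Chrng 155 and 132 bases before it, that of Des 36 bases and that of Ckm 249 bases before it. The Chrnb1 and Myh3 windows hold none. A pair of matches is thus found for 2 of the 3 detected receptor subunits. Tnnt2, a troponin, also has a pair before 1 of its starts and none before the other. The share of all genes with such a pair was not counted. Chrnd, the undetected receptor subunit, had no promoter entry. Matches and windows without one both occur among detected and among undetected genes.

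Both actins were detected, with 3 of 4 acetylcholine receptor subunits, 4 of 9 scaffold and Z-disc genes, 2 of 7 troponins, 1 of 3 light chains and 1 of 3 genes of energy and oxygen supply. None of the 6 myosin heavy chains and none of the 4 genes of calcium release and excitation was detected. In cultures measured as bulk RNA, a low signal from every cell and a high signal from few differentiating cells cannot be told apart. Signals of different probe sets depend on the probes, so fold changes compare arrays and not genes. The detection calls set every gene against a common level and so carry this limit.

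**Figure D1:**
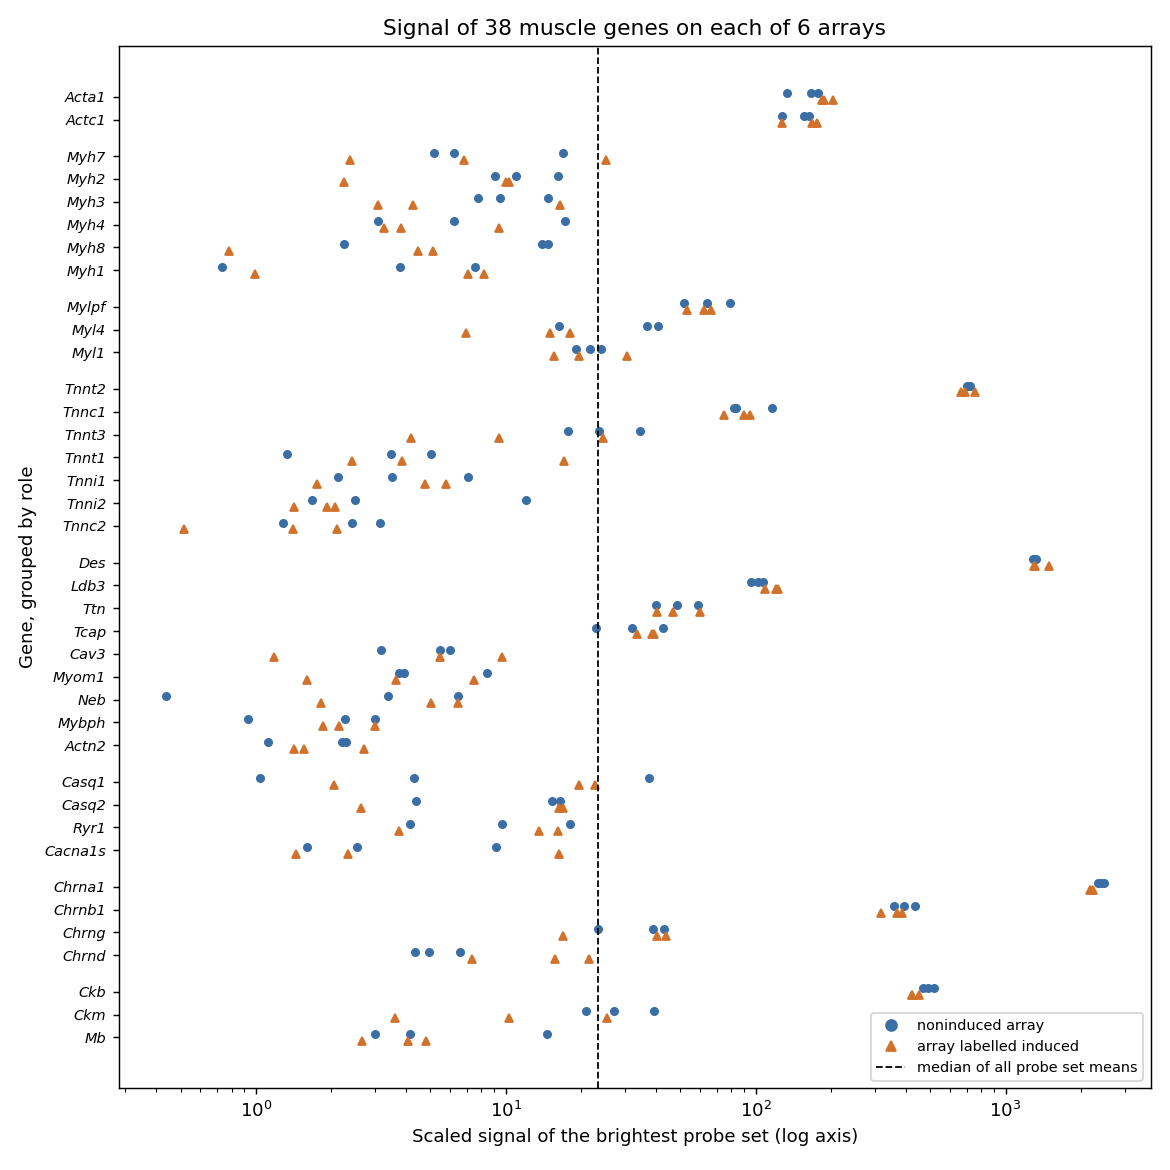
Scaled signal of the brightest probe set of 38 muscle genes (log axis) on 3 noninduced arrays (circles) and 3 arrays labelled induced (triangles), grouped by role; the dashed line marks the detection level of 23.4. All 6 myosin heavy chains and all 4 calcium-release genes have means to the left of the line, while both actins and Chrna1, Chrnb1, Des, Tnnt2 and Ckb lie to the right on every array.

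The myosin heavy chains are the motor proteins of the thick filament. Their means over the 6 arrays were 9.31 for the embryonic Myh3, 6.91 for the perinatal Myh8, 10.4 for the slow Myh7, and 9.79, 4.71 and 7.17 for the adult fast Myh2, Myh1 and Myh4. The highest single value was 25.2, for Myh7 on induced replicate 1, and it was the only value of these 6 probe sets above the median of its array. The 2 other probe sets that could bear on Myh7 are annotated to Myh6 as well and were not used. The other 5 heavy chains were below the array median on all 6 arrays.

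The light chains stabilise and regulate the myosin head. Mylpf, the fast regulatory light chain, gave 78.8, 51.5 and 63.7 on noninduced arrays and 62.0, 66.2 and 53.3 on those labelled induced. Its groups overlapped, and the log2 fold change, computed here and below on log2(signal + 16), was -0.07 (95% interval -0.41 to 0.28). Myl1, the fast alkali light chain, had a mean of 21.8 and Myl4, the embryonic and atrial one, of 22.3, which places both just below the detection level.

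Myl4 was measured by a pair of probe sets that differed. The brighter one gave 40.7, 36.9 and 16.4 on noninduced arrays and 18.1, 6.92 and 15.02 on the others. The dimmer one gave 16.9, 10.1 and 28.3 against 23.5, 25.8 and 16.6. The first had a log2 fold change of -0.67 and the second of 0.17, and in both the groups overlapped.

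The actins form the thin filament. Acta1, skeletal muscle actin, gave 167, 133 and 177 on noninduced arrays and 184, 189 and 203 on those labelled induced. Every array labelled induced lay above every noninduced array, and the log2 fold change was 0.25 (SE 0.109, limma adjusted p = 0.310), with the lowest value on noninduced replicate 2. Without that array it was 0.14, and after median centring 0.35. Actc1, cardiac actin and the early isoform of developing muscle, gave 156, 127 and 164 against 176, 168 and 127. Its groups overlapped (log2 0.07, 95% interval -0.22 to 0.35), and the sign turned to -0.03 without noninduced replicate 2 and to -0.02 without induced replicate 1.

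Actin genes have very similar coding sequences, so probe sets of the family may share signal (probe sequences were not used). Beside the 0.25 of Acta1, the smooth muscle actins stood at 0.33 (Actg2) and 0.06 (Acta2), and the cytoplasmic actins at -0.09 (Actb, 0.01 after centring each array at its median) and -0.02 (Actg1, 0.08 after centring). Actg2 gave 388, 349.6 and 409.97 on noninduced arrays and 467, 531 and 453 on the others, also without overlap, with a limma adjusted p of 0.120. The part of these genes in the Acta1 value was not tested.

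The troponins bind calcium and switch the thin filament on. Tnnt2, the cardiac and embryonic troponin T, had 2 probe sets of nearly equal brightness with means of 706 and 705. The first gave 704, 711 and 719 on noninduced arrays and 687, 665 and 752 on those labelled induced, with overlapping groups and a log2 fold change of -0.02 (95% interval -0.16 to 0.11). The second, of a kind whose probes may also match other transcripts, gave 724, 795 and 736 against 628, 713 and 636. Its groups did not overlap, and it stood at -0.19 (SE 0.068, limma adjusted p = 0.240). Neither of these bright probe sets passed the adjusted threshold. A further, dim Tnnt2 probe set, with a mean of 11.4, was not detected.

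Tnnc1, the calcium-binding subunit of slow and cardiac muscle, gave 83.1, 82.0 and 117 on noninduced arrays and 89.6, 95.003 and 75.1 on the others. Noninduced replicate 3 stood highest and the groups overlapped (log2 -0.09, 95% interval -0.41 to 0.23). Its fast counterpart Tnnc2 had a mean of 1.82, with 0.517 to 3.15 on single arrays. The inhibitory subunits Tnni1 (slow) and Tnni2 (fast) had means of 4.16 and 3.61, and the slow Tnnt1 of 5.53. The fast Tnnt3 reached 19.0, from 17.8, 23.5 and 34.4 on noninduced arrays and 9.44, 4.17 and 24.5 on the others.

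Scaffold proteins hold the filaments in register. Des, desmin, the intermediate filament that is present in muscle precursors as well as fibres, gave 1303, 1284 and 1329.9 on noninduced arrays and 1496, 1318 and 1294 on those labelled induced. Induced replicate 1 stood highest, the groups overlapped, and the log2 fold change was 0.07 (95% interval -0.07 to 0.20). A dimmer Des probe set, with a mean of 21.2 below the detection level, gave 27.3, 30.4 and 27.9 against 11.5, 17.8 and 12.5. That pair of groups did not overlap and stood at -0.58, a sign opposite to the bright probe set.

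Ldb3, the Z-disc protein cypher, gave 107, 103 and 95.7 on noninduced arrays and 109, 120.3 and 123 on those labelled induced. The groups did not overlap, although 107 and 109 lay close, and the log2 value was 0.18 (SE 0.107, limma adjusted p = 0.462), 0.27 after median centring and 0.01 with the gene's probe sets averaged. Its second detected probe set gave 57.8, 50.2 and 53.9 against 47.2, 55.7 and 49.3 and stood at -0.07, and its remaining one was not detected. Tcap, telethonin, which anchors titin at the Z-disc, gave 31.9, 22.9 and 42.6 against 33.5, 39.4 and 38.6, with overlapping groups (log2 0.15, and 0.00 without noninduced replicate 2). Tcap was above the array median on 5 of 6 arrays.

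Ttn, titin, the molecular spring that runs from Z-disc to M-line, was detected with 1 of its 6 probe sets. That probe set gave 39.8, 48.6 and 58.8 on noninduced arrays and 40.5, 59.9 and 46.5 on the others, and its log2 fold change of 0.00 had a 95% interval of -0.39 to 0.38. The other probe sets had means of 4.93 to 22.5. Neb (nebulin, the thin filament ruler) had a mean of 3.93, Actn2 (sarcomeric alpha-actinin) of 1.89, Mybph (a thick filament protein) of 2.20, Myom1 (myomesin, of the M-line) of 4.80 and Cav3 (muscle caveolin) of 5.15. None of these 5 was above the array median on any array.

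The proteins of calcium release were not detected. Ryr1, the release channel of the sarcoplasmic reticulum, had a mean of 10.9, and Cacna1s, the voltage sensor that opens it, of 5.59. The calcium-storage proteins Casq1 and Casq2 had means of 14.5 and 12.03. Casq1 varied widely from array to array, with 4.31, 1.04 and 37.3 on noninduced arrays and 22.7, 19.7 and 2.05 on the others, and only the highest of these was above the median of its array.

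The acetylcholine receptor receives the signal of the motor nerve, and in embryonic muscle it is built from the alpha, beta, gamma and delta subunits. Chrna1, the alpha subunit, gave 2354, 2409.9 and 2469 on noninduced arrays and 2185, 2207 and 2237 on those labelled induced. The groups did not overlap, and the log2 fold change was -0.12 (SE 0.044, limma adjusted p = 0.227), or -0.03 after median centring. Chrnb1, the beta subunit, gave 359, 434 and 394 against 319, 385 and 366, with overlapping groups (log2 -0.14, 95% interval -0.34 to 0.05).

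Chrng, the gamma subunit that defines the embryonic receptor, gave 43.0, 38.8 and 23.5 on noninduced arrays and 16.9, 40.5 and 43.6 on the others. It was above the array median on 4 of 6 arrays and spanned 2.58-fold from the lowest to the highest, the widest range of the 13 detected genes. Its log2 fold change was -0.07 (95% interval -0.62 to 0.49), but 0.20 without induced replicate 1 and 0.02 after median centring. The dimmer Chrng probe sets, with means of 9.46 and 5.52, were not detected and stood at 0.03 and 0.12. Chrnd, the delta subunit, stayed below the detection level with 6.54, 4.34 and 4.96 on noninduced arrays and 7.35, 21.5 and 15.8 on the others. All 3 arrays labelled induced lay above the noninduced arrays, yet none of the 6 values was above its array's median, and Chrnd entered only the fit with no filter on dim probe sets (log2 0.51, limma adjusted p = 0.469).

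Creatine kinases buffer ATP, and the brain-type isoform is typically replaced by the muscle isoform as myoblasts differentiate. Ckb, the brain-type isoform, gave 518, 491 and 469 on noninduced arrays and 423, 422 and 453 on those labelled induced. The groups did not overlap, and the log2 fold change was -0.18 (SE 0.068, limma adjusted p = 0.254), or -0.09 after median centring. Ckm, the muscle isoform, had a mean of 21.1, from 27.2, 39.2 and 20.9 on noninduced arrays and 25.3, 3.60 and 10.3 on the others, with overlapping groups. Mb, myoglobin, which stores oxygen in slow and cardiac fibres, had a mean of 5.54.

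The members nearest the detection level were Chrng (34.4) and Tcap (34.8) above it and Myl4 (22.3), Myl1 (21.8), Ckm (21.1) and Tnnt3 (19.0) below it. With each group judged by its own median, 16 genes were above it in noninduced cells (24.97) and 13 in those labelled induced (22.4). The additional 3 were Ckm, Myl4 and Tnnt3, at 29.1 ± 9.29, 31.3 ± 13.1 and 25.2 ± 8.44 on the noninduced arrays and 13.1 ± 11.1, 13.3 ± 5.77 and 12.7 ± 10.5 on the others (SD, n = 3 each). These 3 were picked out by their higher noninduced values, so the direction is given by the choice. In all 3 genes the groups overlapped.

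**Figure D2:**
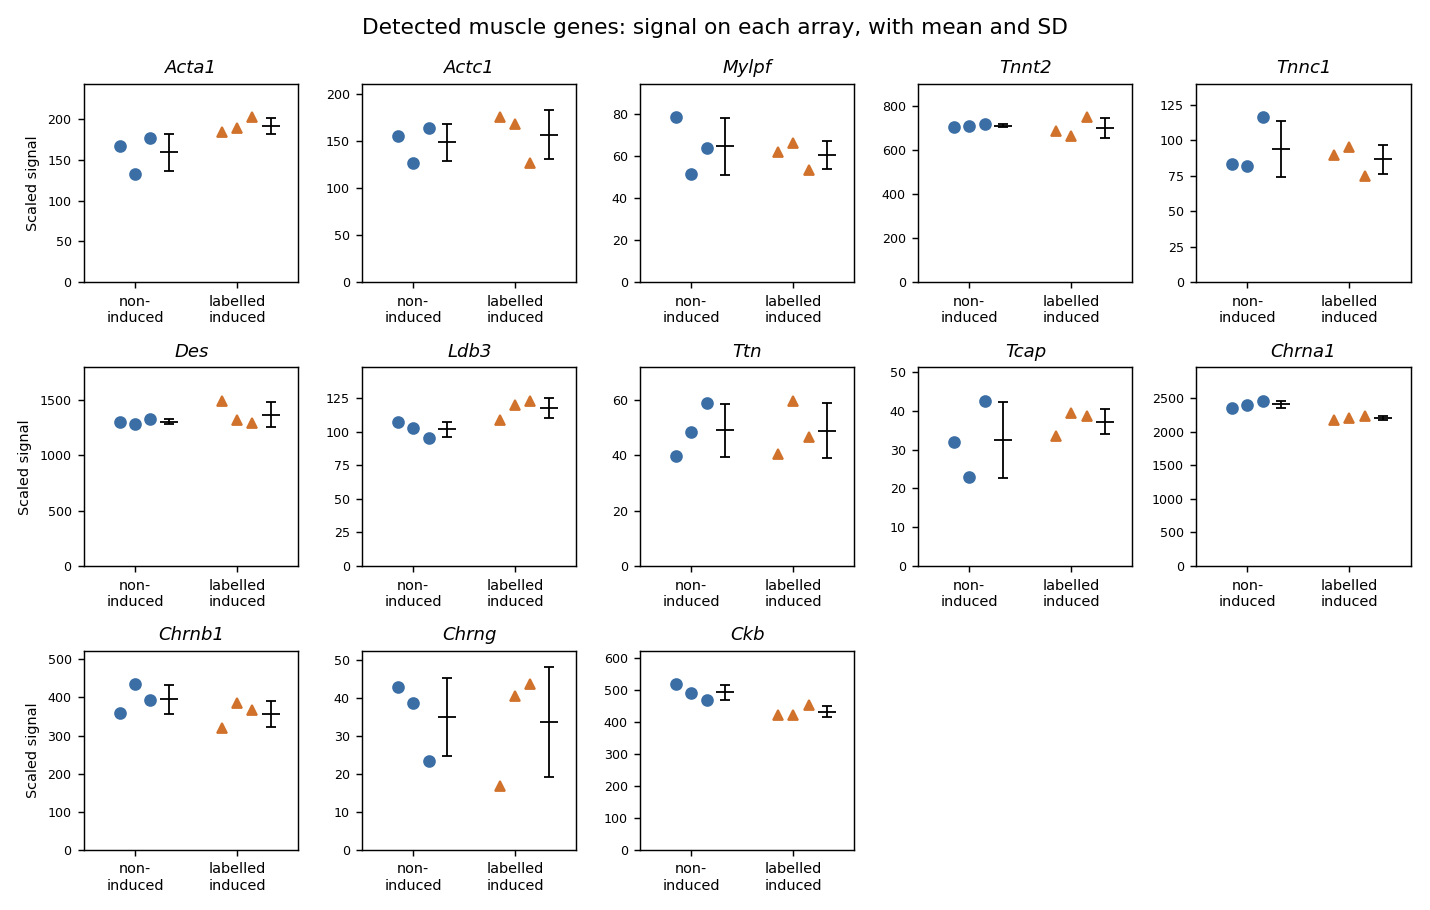
Scaled signal (vertical axes, starting at 0) of the 13 detected genes on 3 noninduced arrays (circles) and 3 arrays labelled induced (triangles), with the mean and SD of each group in black. The groups are apart for Acta1 and Ldb3, with the arrays labelled induced higher, and for Chrna1 and Ckb, with these arrays lower; the other 9 genes overlap.

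No detected gene passed the test between the groups. In limma over 22518 probe sets, none of the 13 was higher and none lower at an adjusted p of 0.05, where 0.12% of all probe sets tested were higher and 0.0799% lower. At an unadjusted p of 0.05, 1 gene was higher (Acta1, where 7.43% of all probe sets were) and 2 were lower (Chrna1 and Ckb, where 7.26% were). Groups were apart with the arrays labelled induced higher for 2 genes (Acta1 and Ldb3, against 9.65% of all probe sets) and lower for 2 (Chrna1 and Ckb, against 10.6%). An exact two-sided permutation test gave p = 0.1 for each of these 4 genes, which is the smallest p that 3 against 3 arrays allow. Among the 13 genes, 5 had positive and 8 negative log2 fold changes, from -0.18 to 0.25, with a median of -0.02 beside -0.01 over all probe sets tested.

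Signs near 0 depend on the scaling of whole arrays. Centring every array at its own median added the same 0.093 to the log2 fold change of each gene, which moved the median over all probe sets tested from -0.01 to 0.08 and that of the 13 genes to 0.07. Chrna1, Chrnb1 and Ckb had negative values under both scalings. Within the first fluidics run, where induced replicate 1 was the single treated array, Acta1 stood at 0.20, Ldb3 at 0.09, Chrna1 at -0.14 and Ckb at -0.21. Since the groups of these 4 genes did not overlap, their signs there follow from that and only the sizes add to it.

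**Figure D3:**
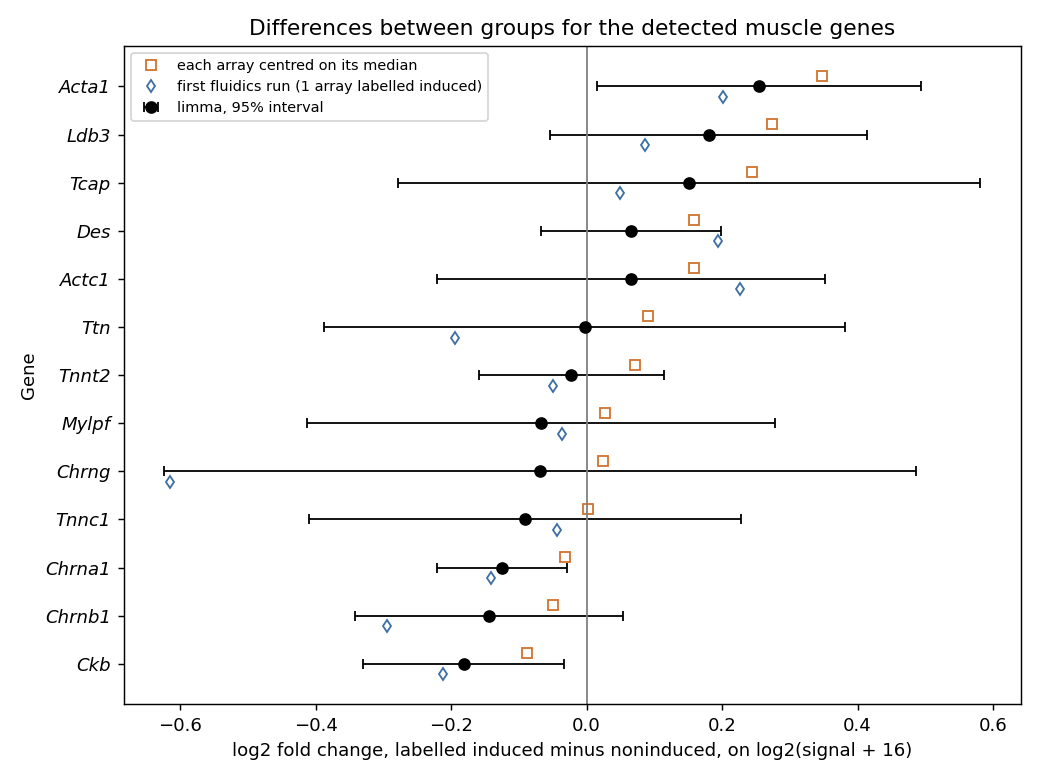
Log2 fold change (labelled induced minus noninduced) of the 13 detected genes with its 95% interval from limma (black), the value after median centring (squares) and the value within the first fluidics run (diamonds). Intervals lie to 1 side of 0 for Acta1, Chrna1 and Ckb, and the widest is that of Chrng, -0.62 to 0.49.

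Among themselves the 13 genes did not move as 1 block from array to array. Their median deviation from each gene's mean over the arrays was -0.03, -0.06 and 0.03 on noninduced replicates 1, 2 and 3 and -0.03, 0.07 and -0.03 on induced replicates 1, 2 and 3. On noninduced replicate 2, Acta1 (-0.35), Actc1 (-0.23), Mylpf (-0.21) and Tcap (-0.37) were low while Chrnb1 (0.21) and Chrng (0.16) were high. On induced replicate 1, Chrng (-0.58) and Chrnb1 (-0.22) were low while Actc1 (0.19) and Des (0.16) were high. The bright Chrna1, Tnnt2 and Des probe sets varied least, with 1.13-, 1.13- and 1.17-fold between the lowest and the highest array.

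**Figure D4:**
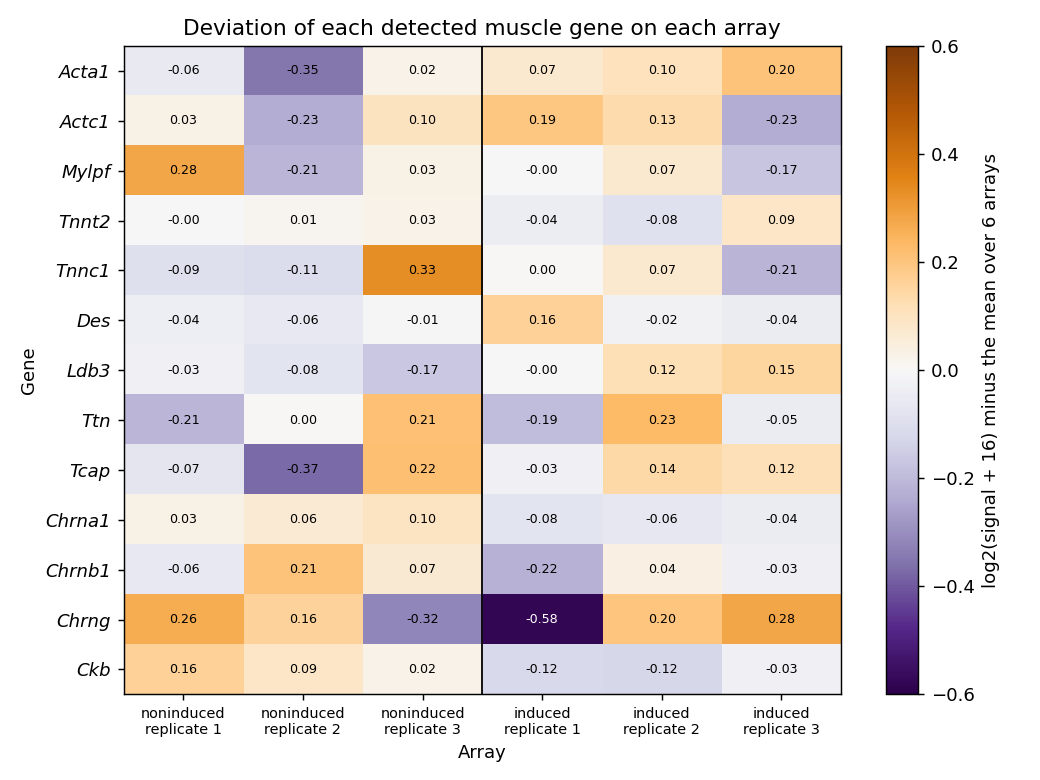
Deviation of log2(signal + 16) from the gene's mean over 6 arrays, for the 13 detected genes (rows) on each array (columns; the line parts noninduced arrays from those labelled induced). Acta1 and Tcap are lowest on noninduced replicate 2 (-0.35 and -0.37), and Chrng is lowest on induced replicate 1 (-0.58).

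Of 78 further genes of the sarcomere, the calcium system, the neuromuscular junction and muscle metabolism, 74 had a probe set and 35 were detected. None was higher or lower at an adjusted p of 0.05 in limma, 3 were higher and 0 lower at an unadjusted p of 0.05 (7.43% and 7.26% of all probe sets), 5 were apart with the arrays labelled induced higher and 1 with them lower (9.65% and 10.6% of all), and the median was -0.01. The largest log2 fold change was that of Synpo2l, a Z-disc protein, with 57.3, 83.4 and 71.7 on noninduced arrays and 104, 98.7 and 89.8 on the others (0.39, limma adjusted p = 0.227). Fbxo32, the ubiquitin ligase atrogin-1, stood at 0.25 (limma adjusted p = 0.283). Myom2, an M-line protein, stood at 0.31 with overlapping groups (limma adjusted p = 0.544), and exceeded the detection level only through the arrays labelled induced (19.8 ± 5.58 noninduced and 28.1 ± 5.39 labelled induced, SD, n = 3 each). Of the genes that cluster the acetylcholine receptor, Rapsn was at -0.06 and Musk at 0.03, and both groups overlapped.

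Non-muscle and smooth muscle counterparts of the sarcomere genes were mostly detected, 15 of 17 against 13 of 38. Of these 15, 4 had higher values on every array labelled induced (Actg2, Tagln, Tpm4 and Myh10, where 9.65% of all probe sets had), 1 had lower values (Actb, where 10.6% had) and none passed limma's adjusted threshold. Their summed signal ranged from 55713 to 59004.5 on noninduced arrays and from 57568 to 59417 on the others.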

How the data were processed

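RNA of each of the 6 samples was measured on its own Affymetrix mouse expression array, per the labels' protocols. The authors deposited 1 linear intensity for each probe set. The submitters' processing notes name GCOS 1.1.1 without its settings. The 2% trimmed mean was 150.0 on every array, so each value is relative to its whole array. The deposited instrument records (unit other) gave scan order, and fluidics runs were inferred from their hybridisation dates and module numbers.

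Of 45101 probe sets 64 controls were left out. Genes were named from the 34945 probe sets with 1 gene in the platform annotation (932 had several, 9160 were not listed). Groups came from the titles. Values were taken to log2(value + 16), the 22518 brightest by mean signal were tested with limma 3.58.1 in R 4.3.3 (variance trend, Benjamini-Hochberg, threshold 0.05), and the steps were tested on simulated data. All 39 genes are accounted for, detected ones by array. The genes and lists were chosen with earlier results of these data known. The labels do not say that replicate numbers pair the arrays, so the main fit used no pairing. Deviations of same-numbered arrays correlated at 0.01, -0.06 and -0.01, which cannot show whether these samples were handled together. Alternatives were other scalings, pseudocounts, filters, probe set rules, blocks and leaving out each array. Promoters came from RefSeq; a planned comparison of protein sequences was not run.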

Additional observations from a re-analysis of the deposited data

How the results depend on the processing

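No gene among those tested passed the adjusted threshold under any alternative, also where the number over all probe sets moved from 45 to 306 (median centring), 102 (filter at the 75th percentile), 5 (replicate block), 1 (no filter) or 0 (no variance trend; fluidics run as a block; first run alone). That number also moved when 1 array was left out: to 0 and 11 for induced replicates 1 and 2, and to 1 and 9 for noninduced replicates 2 and 3. Detection gave 7 genes at the 75th percentile and 8 where every probe set of a gene had to pass, and 13 to 15 when 1 array was left out. The count at an unadjusted p of 0.05 was 5 with no filter, where all 38 genes were tested and the undetected Chrnd and Myl4 were among the 5. It was 1 without a variance trend, 3 with the replicate block, and 1 to 3 when 1 array was left out (1 without induced replicate 1 and 1 without induced replicate 2). In the main fit 7.43% of all probe sets were higher and 7.26% lower at that level. Those shares belong to the main fit, so the counts under the alternatives have no share of their own beside them. They are not read as a result about these genes. The count of genes whose groups were apart was 9 in the first run, where 1 treated array stands against 3 and 54.8% of all probe sets were apart, and 4 to 6 when 1 array was left out, where 29.3% to 32.4% of all probe sets were apart against 20.3% with all arrays. The median log2 fold change was 0.071 after median centring, -0.077 where probe sets of a gene were averaged and -0.12 to 0.046 when 1 array was left out.

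Signs turned for genes near 0. Median centring adds the same 0.093 to every gene, so the values it turned are those just below 0, namely Chrng (0.025), Mylpf (0.027), Tnnc1 (0.0022), Tnnt2 (0.071) and Ttn (0.091). Under quantile normalization they were Chrng (0.010) and Ttn (0.048), and with its probe sets averaged Des (-0.26). When 1 array was left out the values ran from -0.034 to 0.20 for Actc1, -0.24 to 0.20 for Chrng, -0.19 to 0.057 for Mylpf, -0.17 to 0.052 for Tnnc1, -0.16 to 0.014 for Tnnt2 (whose brightest probe set changed) and -0.12 to 0.10 for Ttn. A pair of alternatives was added after the data were seen, a filter on the mean log2 value and the second Tnnt2 probe set, with 3 and 4 genes at an unadjusted p of 0.05. Dim genes, with signals near the pseudocount, could show only large changes.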
